A study of Mus musculus with 4 samples.

Results

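The genes described here are 32 members of the hepatic programme for burning fatty acids: the nuclear receptor gene Ppara, genes of mitochondrial and peroxisomal beta-oxidation, acyl-CoA thioesterases, 1 gene of ketone body formation and 3 further targets of the receptor. They were found by symbol among 34761 named genes on an Agilent 1-colour expression array, where all 32 were present with 42 probes. Liver RNA came from male C57BL/6 mice, an inbred laboratory strain with no engineered allele named in the labels, that received a high-fat, high-sucrose (HFHS) diet from 5 weeks of age. One array was deposited for each of 0, 5, 10 and 15 weeks of feeding, so the mice were 5, 10, 15 and 20 weeks old. The series text speaks of 4 mice at each time and does not say whether an array carried RNA of 1 mouse or of a pool. All 4 groups share the strain and sex, control-diet animals are not analysed here, and time on the diet and age cannot be told apart.

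The nuclear receptor PPAR-alpha, encoded by Ppara, binds fatty acids and, as a dimer with RXR, switches on genes of fatty acid breakdown in the liver, above all in fasting. Long-chain fatty acids are joined to coenzyme A, carried into mitochondria as carnitine esters and shortened cycle by cycle to acetyl-CoA, which the fasting liver turns into ketone bodies. Very long chains and dicarboxylic acids are shortened first in peroxisomes, and thioesterases split acyl-CoA back into free fatty acid and coenzyme A.

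Levels below are the log2 of the processed fluorescence intensity, scaled to the 75th percentile of the array. Differences between times are log2 differences relative to the median measured gene, and a gene was called higher or lower when it lay at least 2-fold from that median. Only genes whose spots the scanner software marked as clearly brighter than background in each array of a comparison were counted, and all 32 members met this on all 4 arrays, with no saturated member spot. Each time point has 1 array, so no difference has a replicate check, no test was made, and the number of arrays limits the precision. Spots of 1 array repeated with a median SD between 0.0646 and 0.0743 over probes with 10 spots. The difference between a pair of single spots therefore carries an error of about 0.0945. It comes from spots within 1 array, so it leaves out variation between arrays and all variation between animals.

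The arrays had 44.5% to 48.3% of spots above background, the highest share at 15 weeks. As scaled, the median gene differed from 0 weeks by −0.25 at 15 weeks, against −0.02 at 5 weeks and −0.01 at 10 weeks. Differences between 15 and 0 weeks given here therefore lie 0.25 above a subtraction of the printed levels. Brightly measured genes lay below the median gene at 15 weeks: the 3668 genes with a mean level of at least 4 had a median of −0.13. All 17 hepatocyte markers lay below it too, with a median of −0.34 and a summed level, in multiples of the array's 75th percentile, of 22725, 20740.3, 22009.9 and 14987 from the first time to the last. After quantile normalization the hepatocyte median at 15 weeks was 0.02, with 8 of 17 below. At 15 weeks 7 of 12 stellate cell and fibroblast markers and 6 of the 8 measured T and NK cell markers were at least 2-fold higher than at 0 weeks. From 10 to 15 weeks 9 of 12 stellate and 7 of 8 measured bile duct markers were higher. The 10-week array was low for both lists: 5 of the 12 and 4 of the 8 were at least 2-fold lower there than at 0 weeks. At 15 against 0 weeks 2 of the 8 bile duct markers were higher and 1 lower, and 1 of the 12 stellate markers was lower. Of 18 macrophage and Kupffer cell markers, 16 were at least 2-fold higher at 15 weeks, and their summed level was 185, 331, 406 and 494. Adipocyte markers summed to 114, 311, 656 and 559, of which Car3 alone, with levels of 6.35, 7.85, 9.24 and 8.81, made up 72.0% or more. Lep and Ucp1 were above background on no array, and Adipoq, Retn and Plin1 on the 5-week array only. In whole tissue, fewer cells of a type and less RNA per cell cannot be told apart, and the part of these shifts in the members' values was not tested.

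Most of the oxidation programme stayed within 2-fold of its starting level through 15 weeks of feeding. Of the 32 members, 29 were within 2-fold of 0 weeks at all 3 later times. The exceptions were Ehhadh, a peroxisomal enzyme, which was lower at 10 and 15 weeks, Pdk4, a brake on glucose oxidation, which was higher at 5 and 15 weeks, and Aldh3a2, a fatty aldehyde dehydrogenase, which was higher at 15 weeks. The Pdk4 spot at 5 weeks lay among unusually bright spots, and its value was lost when such spots were left out. At 5 weeks 1 member was called higher and none lower, where 2.42% of the 17095 measured genes were called higher and 1.49% lower. At 10 weeks no member was called higher and 1 lower, beside 2.96% and 1.5% of 17143 genes. At 15 weeks 2 members were called higher and 1 lower, beside 8.11% and 2.77% of 17562 genes. Each of these counts is near what those shares give for 32 genes.

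**Figure D1:**
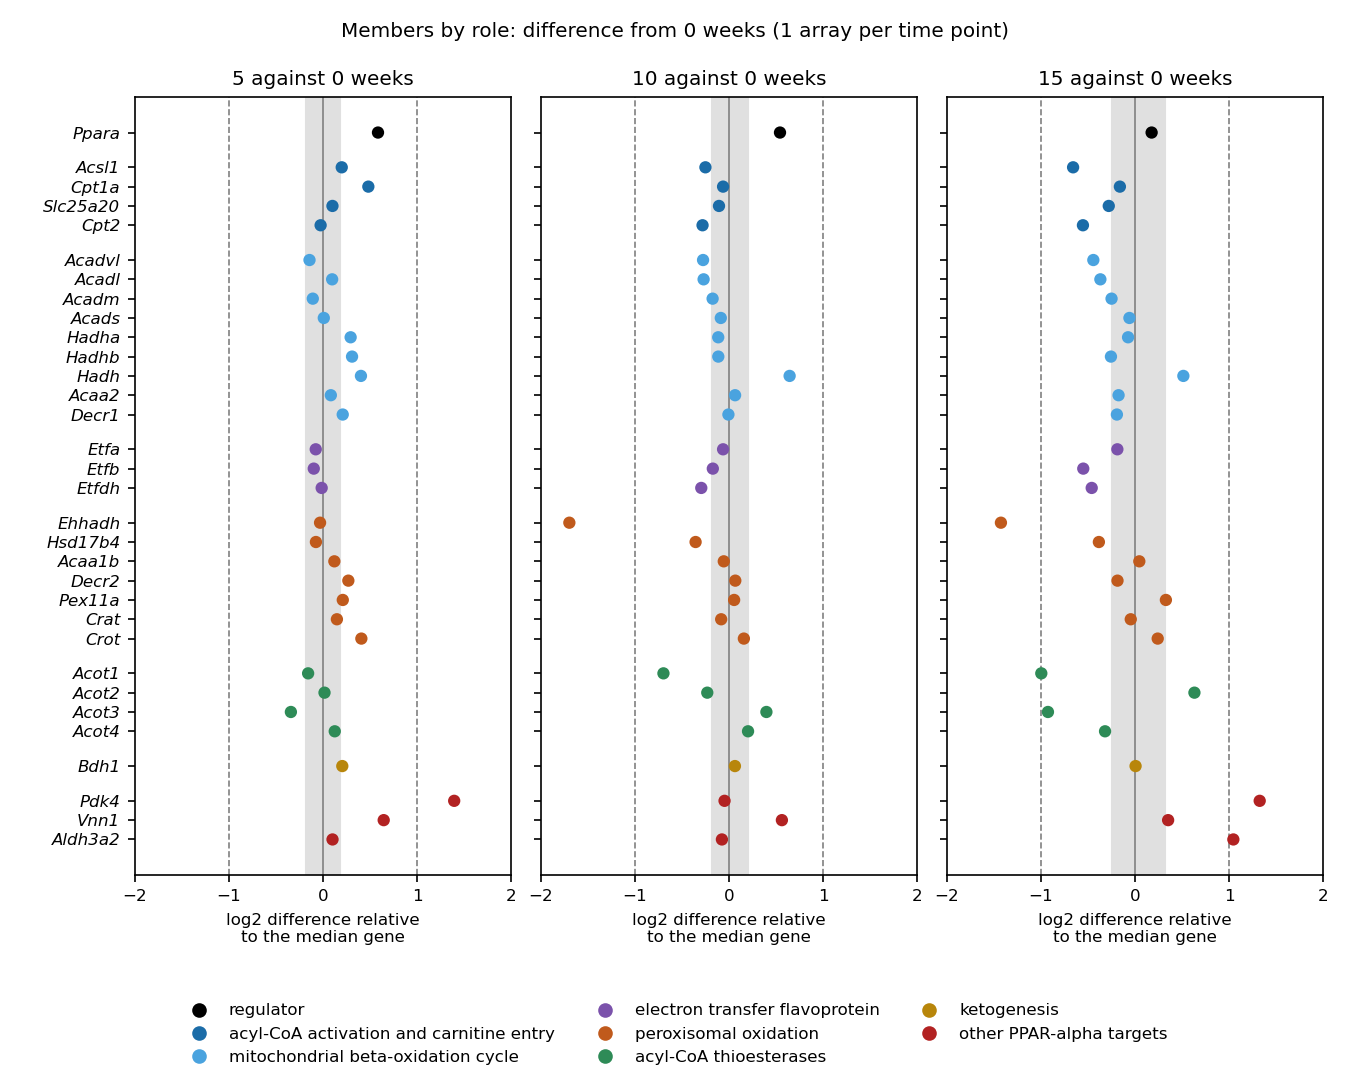
Log2 difference from 0 weeks relative to the median gene (x axis) for each of the 32 members (y axis, coloured by role) at 5, 10 and 15 weeks, 1 array per time. The grey band spans the middle 50% of all measured genes and dashed lines mark 2-fold. Ehhadh lies at −1.70 and −1.43 at 10 and 15 weeks, Pdk4 at 1.40 and 1.33 at 5 and 15 weeks, and Acot1 at −0.997 just inside the dashed line at 15 weeks. The 5-week Pdk4 spot lay among unusually bright spots.

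Ppara was moderately higher in the middle of the series. Its level was 6.59, 7.15, 7.12 and 6.51 at 0, 5, 10 and 15 weeks, so the arrays at 5 and 10 weeks stood above those at 0 and 15 weeks. Relative to the median gene it differed from 0 weeks by 0.59, 0.54 and 0.18, which is 1.46-fold higher at 10 weeks and 1.13-fold at 15 weeks. Under the 13 alternative settings the first of these ranged from 0.49 to 0.65 and the second from 0.45 to 0.56. The third ranged from −0.07 to 0.51 and so has no settled direction. Settings that only rescale a whole array cannot move a difference relative to the median gene, so the 13 are not all separate checks. The other 2 Ppara probes followed the same course, with 0.64 and 0.51 at 5 weeks and 0.20 for both at 15 weeks.

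The genes that bring fatty acids into mitochondria all stayed within 2-fold, with 3 of 4 above the median gene at 5 weeks and all 4 below it at 10 weeks. The group holds Acsl1, which joins long-chain fatty acids to coenzyme A, Cpt1a and Cpt2, which make and undo the carnitine ester on either side of the inner membrane, and Slc25a20, which carries it across. Its median difference was 0.15 at 5 weeks, −0.18 at 10 weeks and −0.42 at 15 weeks, and the last ranged from −0.67 to −0.08 over the settings, with 2 to 4 of the 4 genes below. Acsl1 had levels of 8.998, 9.18, 8.74 and 8.09, the lowest at 15 weeks, with differences of 0.20, −0.25 and −0.66. Cpt2 had 6.54, 6.50, 6.25 and 5.74 and differed by −0.03, −0.28 and −0.55. It was lower at each step, the first by less than the error of 0.0945 between single spots, although 5 of the 44 spots around its 5-week spot were unusually bright. Slc25a20 differed by 0.10, −0.11 and −0.28.

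Cpt1a, the gene of the rate-setting enzyme of this entry, was highest at 5 weeks. Its level was 7.13, 7.59, 7.05 and 6.72, each the mean of 9 or 10 spots with an SD over spots between 0.02 and 0.0328. The 5-week array was the highest, with a difference of 0.48 from 0 weeks (1.40-fold), and the SD covers spots of 1 array and not mice. At 10 weeks the difference was −0.06 and at 15 weeks −0.16, the latter between −0.41 and 0.17 over the settings. Its second probe gave 0.50, −0.07 and −0.20.

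The 9 genes of the mitochondrial cycle moved little. Their median difference was 0.10 at 5 weeks, −0.11 at 10 weeks and −0.19 at 15 weeks, and none was called at any time. The acyl-CoA dehydrogenases, which take the first step for chains of falling length, differed at 15 weeks by −0.44 for Acadvl, −0.37 for Acadl, −0.25 for Acadm and −0.06 for Acads. Acads, the short-chain enzyme, had levels of 4.75, 4.74, 4.65 and 4.44 and the smallest span of any member, 0.0960 relative to the median gene. Acaa2, the thiolase that releases acetyl-CoA, differed by 0.08, 0.06 and −0.18, and Decr1, a reductase needed for unsaturated chains, by 0.21, −0.01 and −0.19.

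Hadh, the short- and medium-chain hydroxyacyl-CoA dehydrogenase, was the exception within the cycle. Its level was 6.13, 6.52, 6.77 and 6.40, so that every later array lay above the 0-week array. The differences were 0.40, 0.64 and 0.51 (1.32-fold, 1.56-fold and 1.43-fold higher), and over the settings the last ranged from 0.26 to 0.85. It was the only one of the 16 mitochondrial members above the median gene at 15 weeks. That statement holds for the main scaling: after quantile normalization 8 of the 16 lay above it.

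Hadha and Hadhb encode the alpha and beta subunits of the trifunctional protein, which carries out the last 3 steps on long chains. Their differences from 0 weeks were alike at 5 and 10 weeks and less so at 15 weeks. Hadha had levels of 3.90, 4.17, 3.77 and 3.57, and Hadhb of 7.16, 7.45, 7.03 and 6.65. Both were highest at 5 weeks, by 0.29 and 0.31, and both differed by −0.11 at 10 weeks, while at 15 weeks they gave −0.07 and −0.26. The pair is shown by sequence because both genes start from 1 short stretch of DNA in opposite directions. In the RefSeq promoter table of build GRCm38.p6 the annotated starts lie 273 bases apart on chromosome 5, Hadha on the minus and Hadhb on the plus strand. The 228 bases upstream of both starts that the promoter windows share, at chr5:30155003-30155230 on the plus strand, read as follows, with CpG dinucleotides in capitals.
Hadha and Hadhb: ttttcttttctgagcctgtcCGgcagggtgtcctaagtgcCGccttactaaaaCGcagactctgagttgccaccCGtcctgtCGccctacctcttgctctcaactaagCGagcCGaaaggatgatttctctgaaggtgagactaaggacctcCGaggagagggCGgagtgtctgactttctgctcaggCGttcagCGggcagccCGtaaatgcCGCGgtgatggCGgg
The stretch holds 15 CpGs, or 6.58 per 100 bases, where the median promoter window of the table holds 2.33, and it does not contain the letters AGGTCA on either strand.

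Electrons from the first step pass through the electron transfer flavoprotein, made of the Etfa and Etfb subunits, to the membrane oxidoreductase encoded by Etfdh. All 3 genes lay slightly below the median gene at each time. Etfb had levels of 9.44, 9.32, 9.25 and 8.63 and differed by −0.10, −0.17 and −0.55. Etfdh gave −0.01, −0.29 and −0.46 and Etfa −0.08, −0.06 and −0.19. The median of the 3 at 15 weeks, −0.46, ranged from −0.71 to −0.13 over the settings, and 1 of the 3 lay above the median gene after quantile normalization.

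With entry, cycle and electron transfer pooled, the 16 mitochondrial members had medians of 0.09, −0.11 and −0.25 at 5, 10 and 15 weeks. The 15-week median has no settled direction: 15 of 16 lay below the median gene with the main scaling, but the median was 0.01 with 8 of 16 below after quantile normalization and 0.08 with 6 of 16 below relative to the hepatocyte markers. No mitochondrial member reached 2-fold in any of the 6 comparisons between times under the main scaling.

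**Figure D2:**
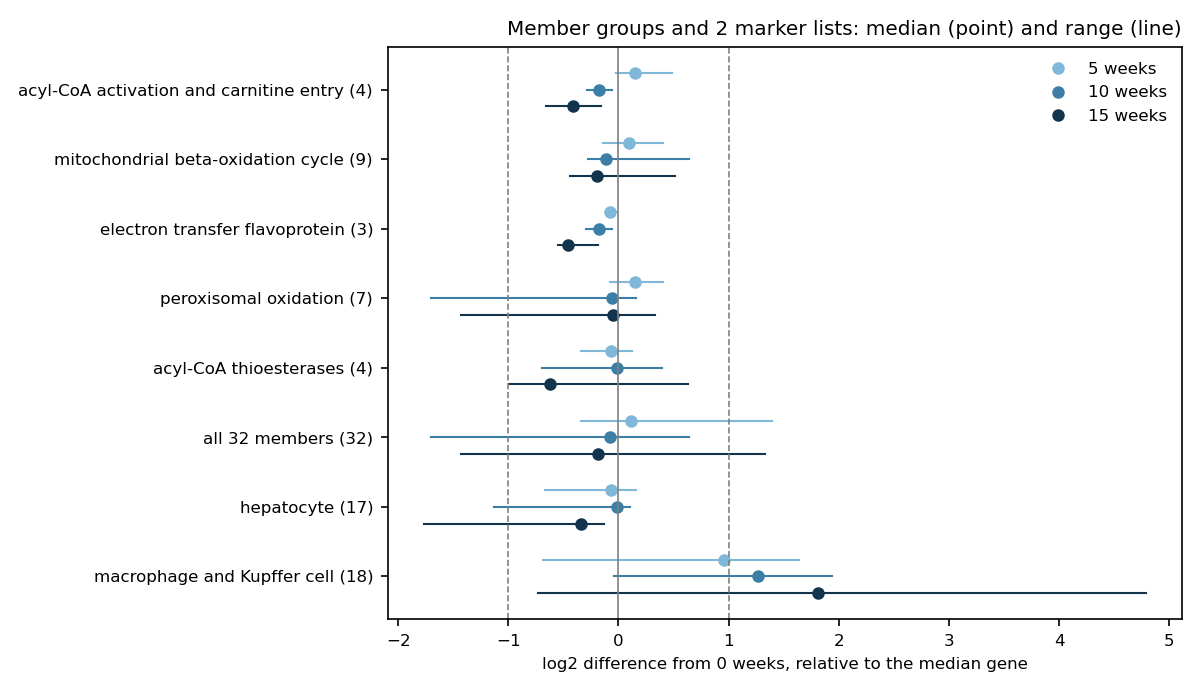
Log2 difference from 0 weeks relative to the median gene (x axis) for 5 groups of members, all 32 members and 2 marker lists (y axis, number of genes in brackets). Points are medians over genes and lines run from the lowest to the highest gene, in a lighter to darker shade for 5, 10 and 15 weeks. The mitochondrial groups and the hepatocyte markers shift to the left at 15 weeks, which quantile normalization removes for the mitochondrial cycle (median 0.06) and the hepatocyte markers (0.02), while the macrophage markers lie to the right.

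Among the peroxisomal members a single gene moved far. Ehhadh encodes the L-bifunctional protein, which hydrates and oxidises peroxisomal acyl-CoA and is a long-known PPAR-alpha target. Its level was 7.84, 7.79, 6.13 and 6.16 at 0, 5, 10 and 15 weeks. The arrays at 0 and 5 weeks were alike, and those at 10 and 15 weeks were far lower and alike. Relative to the median gene it differed by −0.03 at 5 weeks, −1.70 at 10 weeks (3.25-fold lower) and −1.43 at 15 weeks (2.69-fold lower), the largest span of any member (1.70). Over the settings the 10-week value ranged from −1.79 to −1.64 and the 15-week value from −1.68 to −1.09, so it was called under each. Its reading rests on 1 spot per array, which neither the probe rules nor a pure rescaling can change. Ehhadh has 1 probe on the array, at chr16:21761914-21761973 of mm9, and none of the 44 spots around it was unusually bright on any array. Between 5 and 10 weeks Ehhadh was 3.19-fold lower. With Pdk4 it was 1 of 2 members called lower, beside 1.19% of 17108 genes, and no member was called higher (0.918% of genes). The Pdk4 spot at 5 weeks lay among unusually bright spots, and with such spots left out 1 member was called lower.

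The other 6 peroxisomal members stayed within 2-fold. Hsd17b4, the D-bifunctional protein that works on the same steps as Ehhadh, differed by −0.08, −0.36 and −0.38. Acaa1b, a thiolase, had levels of 8.83, 8.93, 8.77 and 8.63 and stayed close to its start, with differences of 0.12, −0.06 and 0.05. Crot, which makes carnitine esters of medium chains for export from the peroxisome, differed by 0.41, 0.16 and 0.24. Pex11a, which acts in peroxisome division, had levels of 7.89, 8.08, 7.93 and 7.96 over 9 or 10 spots each, and differed by 0.21, 0.05 and 0.33. Decr2 gave 0.27, 0.07 and −0.19 and Crat, a carnitine acetyltransferase found in mitochondria as well, 0.15, −0.08 and −0.05. The median of the 7 was 0.15, −0.06 and −0.05, and the last ran from −0.30 to 0.29 over the settings.

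The 4 thioesterases went different ways. Acot1, a cytosolic enzyme, Acot2, its mitochondrial relative, and Acot3 and Acot4, which are peroxisomal, lie on chromosome 12 in the order Acot2, Acot1, Acot4 and Acot3. Because such relatives arose by duplication, the probes are shown by the middle 30 of their 60 bases, with positions in mm9 on the plus strand and the letters AATAAA, a signal for polyadenylation, in capitals.
Acot2, chr12:85334086-85334115: atattatcacaatgtcagttcaggttagtt
Acot1, chr12:85358576-85358605: gctatccaagaaaagtgccaggAATAAAaa
Acot4, chr12:85384836-85384865: aattcatgtttagggcattaatggcttata
Acot3, brighter probe, chr12:85400467-85400496: tatacacacaagcacacatgAATAAAaata
Acot3, dimmer probe, chr12:85399483-85399512: tatccaacatcggcggaaacttacagtaca
The brightest probes of Acot1 to Acot5 shared at most 9 bases in a row with one another. Whether a probe also binds another transcript was not tested.

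Acot1 was lower at each step. Its level was 7.45, 7.28, 6.75 and 6.21, with differences from 0 weeks of −0.16, −0.70 and −0.997. At 15 weeks it was 1.996-fold lower and so just missed the 2-fold threshold. Over the settings this value ranged from −1.25 to −0.66, and it passed 2-fold under 1 of 13, the difference as scaled. Acot2 went the other way at the end, with levels of 0.50, 0.50, 0.26 and 0.88 and differences of 0.02, −0.23 and 0.63. Acot3 swung most: its levels were 3.096, 2.74, 3.49 and 1.92, highest at 10 weeks and lowest at 15 weeks. From 0 weeks it differed by −0.34, 0.40 and −0.93, and its dimmer probe gave −0.31, 0.28 and −1.03. Between 10 and 15 weeks it was 2.50-fold lower, the 1 member called lower there beside 2.26% of 17490 genes. Acot4, with levels of 2.41, 2.51, 2.60 and 1.84, was also lowest at 15 weeks, at a smaller size (0.13, 0.20 and −0.32). Its 10-week array lay 0.07 above the 5-week array, less than the error of 0.0945 between single spots. A high point at 10 weeks, as in Acot3, is therefore not resolved. The median of the 4 was −0.07, −0.01 and −0.62, the last between −0.87 and −0.29 over the settings, in a group that ran from −0.997 to 0.63.

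**Figure D3:**
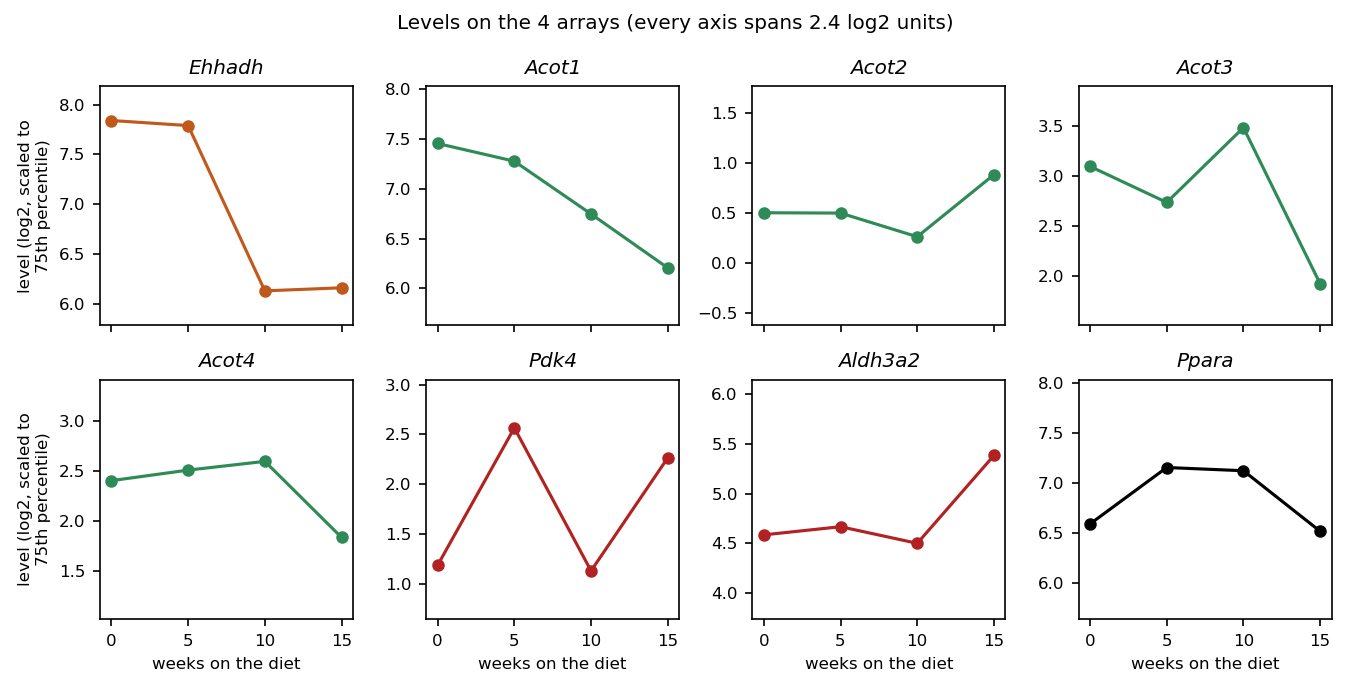
Level (log2 of intensity scaled to the array's 75th percentile, y axis) by weeks on the diet (x axis) for 8 members, 1 array per point and no error bars because no time was repeated. Every y axis has the same span. Ehhadh drops between 5 and 10 weeks, Acot1 is lower on each array than on the one before, Acot3 peaks at 3.49 at 10 weeks, and Pdk4 is high at 5 and 15 weeks. The 5-week Pdk4 spot lay among unusually bright spots.

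For members with more than 1 probe, the probes could be set against each other. Of the 8 such members, the 2 brightest probes differed at 15 against 0 weeks by a median of 0.10 and at most 0.12, where the 4398 genes with 2 measured probes had a median gap of 0.18. The probes of 1 gene share the RNA sample and the array, so their likeness says nothing of other mice. The remaining 24 members, Ehhadh, Acot1, Pdk4 and Aldh3a2 among them, rest on 1 probe each.

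**Figure D4:**
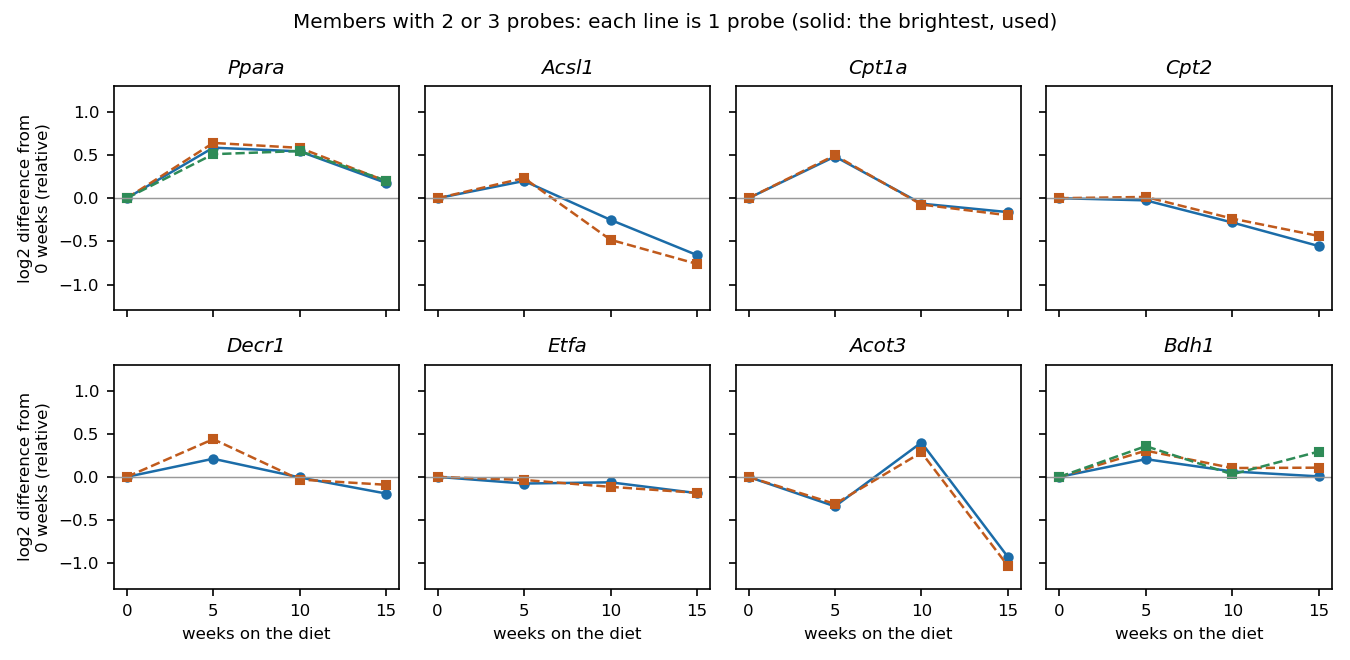
Log2 difference from 0 weeks relative to the median gene (y axis) by weeks on the diet (x axis) for the 8 members with 2 or 3 probes, 1 line per probe. The solid line is the brightest probe, used in the text. At 15 weeks the probes of most genes lie close together, the third Bdh1 probe lies at 0.29 against 0.01 for the brightest, and both Acot3 probes show the swing from 10 to 15 weeks.

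Bdh1, which interconverts the ketone bodies acetoacetate and beta-hydroxybutyrate, is the ketogenic member. Its level was 7.004, 7.19, 7.06 and 6.76, an almost flat course, with differences of 0.21, 0.06 and 0.01.

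Of the 3 further targets, Pdk4 and Aldh3a2 were called higher at 15 weeks, beside 8.11% of all measured genes. At 5 weeks Pdk4 was called higher too, beside 2.42%. Pdk4 encodes a kinase that shuts off pyruvate dehydrogenase and so spares glucose when fat is burnt. Its level was 1.19, 2.57, 1.13 and 2.27, high at 5 and 15 weeks and low at 0 and 10 weeks, with differences of 1.40 (2.63-fold), −0.05 and 1.33 (2.51-fold). On the 5-week array 16 of the 44 spots around the Pdk4 spot were unusually bright, against 1 at 15 weeks and 0 at the other times. With such locally bright spots left out, Pdk4 had no value at 5 weeks and no member was called higher there. The 15-week value was 1.33 under that setting too. Aldh3a2, which oxidises fatty aldehydes, had levels of 4.59, 4.67, 4.50 and 5.38: 3 like arrays and a higher one at 15 weeks. Its difference at 15 weeks was 1.05 (2.07-fold higher), and of 13 settings 1 put it under the threshold, at 0.80, the difference as scaled. Between 10 and 15 weeks Pdk4 and Aldh3a2 were the 2 members called higher, beside 6.17% of 17490 genes. Vnn1, which frees pantothenate from pantetheine, differed by 0.65, 0.56 and 0.35, with levels of 4.62, 5.24, 5.17 and 4.72, and 10 of 44 spots around it were bright at 15 weeks.

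The members leaned towards a high point at 5 weeks. Among the 4 arrays, 17 of 32 members were highest at 5 weeks (53.1%), where 20.4% of the 16684 genes above background on all arrays were. None of the 32 was lowest there, beside 21.6% of all genes, and 1 was under 4 of the settings. At 15 weeks 18 members were lowest (56.2%), beside 32.6% of all genes. After quantile normalization 14 were highest at 5 weeks (19.7% of all genes) and 8 lowest at 15 weeks (31.9% of all genes), so the second count did not hold. Over the 13 settings the first ran from 9 to 17. From 5 to 15 weeks 1 member was called lower and none higher, beside 2.81% and 6.23% of 17422 genes. There 28 of 32 lay below the median gene, as did 70.7% of the genes with a mean level of at least 4. The count of members below the reference ran from 20 to 30 over the settings. Cpt2, Acadvl, Acadm, Etfb, Etfdh, Hsd17b4 and Acot1 were lower at each step with the main scaling, and no member was higher at each step. Not all of these steps exceeded the error of 0.0945 between single spots. Etfdh differed by −0.01 from 0 to 5 weeks, and Hsd17b4 by −0.03 from 10 to 15 weeks. The share of all genes that were lower at each step was not counted. The 7 became 3 after quantile normalization and 1 relative to the hepatocyte markers. The median span over the 4 arrays was 0.46 for the members, 0.44 for all genes and 0.32 for the 3668 genes with a mean level of at least 4, to which 26 of the members belong.

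The promoters of the members were searched for the receptor's binding letters. PPAR-alpha with RXR binds a direct repeat of AGGTCA with 1 base between the copies. RefSeq promoter windows of GRCm38.p6, from 250 bases before to 50 bases after the start, were at hand for 27 of the 32 members. Searched on both strands, the repeat AGGTCANAGGTCA was in none of the 27 and in 0.0481% of the 27025 genes of the table. A looser form, AGGNCANAGGNCA, was in none of the 27 and in 0.451%, shares so low that a lack of matches among 27 genes says nothing. The single copy AGGTCA, which is contained in the first repeat, was in 5 of 27 members (18.5%) and in 18.1% of all genes. These were Acadm, Acadvl, Acot3, Acot4 and Cpt1a. The windows of 30 bases around it in 3 of them are shown as examples, on the strand of the gene and with the 6 letters or their reverse complement in capitals. The choice says nothing of a link to the genes' courses. Acadm, with a match 249 bases before the start, is not shown and was lower at each step, as Acadvl was. The Acadm steps after 5 weeks, −0.07 each, were smaller than the error of 0.0945 between single spots.
Cpt1a, 94 bases before the start, chr19:3323195-3323224, plus strand: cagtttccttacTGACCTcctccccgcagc
Acadvl, 87 bases before the start, chr11:70015498-70015527, minus strand: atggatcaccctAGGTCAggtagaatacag
Acot4, 13 bases before the start, chr12:84038349-84038378, plus strand: ggctcagccccgaagcaTGACCTttggccg
A match is a run of letters and not a shown site, and its absence says only that these letters are not in this window.

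Of 109 other genes of the pathway, listed with earlier results of these data known, 103 were measured at 5 against 0 weeks, 101 at 10 and 103 at 15 weeks. Called higher and lower were 5 and 1 at 5 weeks, 4 and 3 at 10 weeks and 7 and 7 at 15 weeks. Over all genes the shares called higher and lower were 2.42% and 1.49%, 2.96% and 1.5%, and 8.11% and 2.77%. The 7 called lower at 15 weeks include both Cyp4a10 and Cyp4a31, whose probes share 34 bases in a row. At 15 weeks 63 of the 103 lay below the median gene.

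In the mitochondrial list of 23 genes, 1 was called lower at 10 and 1 at 15 weeks. Cpt1b, the carnitine transferase of muscle, differed by 0.33, −1.05 and 0.32, with −0.75 at 10 weeks from its second probe, and stayed within 2-fold under 3 of 13 settings (up to −0.52). Hsd17b10, a dehydrogenase of short branched chains, had levels of 9.29, 9.07, 8.85 and 8.02 and differed by −0.20, −0.42 and −1.02. Of the 44 spots around it 6 were bright at 15 weeks, and under 5 of 12 settings it stayed within 2-fold, up to −0.68.

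The 25 other peroxisomal genes held 1 called higher at 5 and at 10 weeks and 1 called lower at 15 weeks. Nudt7, which cleaves coenzyme A in peroxisomes, was high in the middle of the series, at 5.73, 7.53, 7.04 and 5.69. It differed by 1.82 at 5 weeks (3.52-fold), 1.32 at 10 weeks (2.49-fold) and 0.21 at 15 weeks, and its other probe gave 1.83, 1.33 and 0.36. Hacl1, the lyase of peroxisomal alpha-oxidation, was lowest at 15 weeks, at 7.37, 7.17, 6.97 and 5.88, with differences of −0.19, −0.40 and −1.25. It stayed within 2-fold after quantile normalization and relative to the hepatocyte markers (up to −0.91). Acaa1a, the thiolase paired with Acaa1b, gave 0.10, −0.03 and −0.29.

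Of the 12 other thioesterases, 2 were called against 0 weeks. Acot5, a peroxisomal enzyme encoded after Acot3 on chromosome 12, differed by −0.49, −1.24 and −1.65, with levels of 1.09, 0.58, −0.16 and −0.82, and its second probe gave −1.41, −1.12 and −1.10. Acot9, a mitochondrial enzyme, differed by 0.17, 0.01 and 1.49 (2.80-fold higher at 15 weeks). By its brightest probe Acot5, like Acot1, was lower at each step, and Acot9, like Acot2, was highest at 15 weeks.

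The ketone body list of 12 genes, drawn up with earlier results of these data known, had 4 of 10 measured genes called higher at 15 weeks and none lower. Over all measured genes 8.11% were called higher and 2.77% lower there. Fgf21, a liver hormone of the fasting response and a PPAR-alpha target, had levels of 0.32, 2.74, 1.69 and 2.88 and differed by 2.44 (5.44-fold), 1.38 (2.60-fold) and 2.82 (7.06-fold). Aacs, which activates acetoacetate for lipid synthesis, differed by 0.80, 1.34 and 1.69. Oxct1, the enzyme of ketone body use that hepatocytes lack, differed by 0.27, 0.09 and 1.19, and Slc16a6, a transporter that exports ketone bodies from liver, by 0.37, 0.50 and 1.15. Oxct1 and Slc16a6 fell short of 2-fold as scaled, at 0.94 and 0.90, and Oxct1 after normexp, at 0.92. Slc16a7, another monocarboxylate transporter, was lower at 5 weeks (−1.26) by its brightest probe, while the 2 others above background on both arrays gave −0.56 and −0.77.

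Among 37 partners and targets of the receptor, the Cyp4a genes were lower at 15 weeks. These encode omega-hydroxylases of fatty acids and are among the strongest PPAR-alpha targets in mouse liver. Cyp4a14 had levels of 10.58, 10.17, 9.69 and 8.99, lower at each step, and differed by −0.39, −0.89 and −1.34. Cyp4a10 gave −0.12, −0.40 and −1.04 by its brightest probe, and −0.70 and −1.01 at 10 weeks and −1.37 and −1.73 at 15 weeks by the other probes. Cyp4a31 gave −0.15, −0.50 and −1.13, and by the others −1.04 and −1.08 at 10 weeks and −1.82 and −1.88 at 15 weeks. Cyp4a32, with 1 probe, differed by −0.49, −1.13 and −2.002. The probes of Cyp4a10 and Cyp4a31 share 34 bases in a row, so values of these near-identical genes are uncertain and cannot be counted as separate. The median of the 4 at 15 weeks was −1.24 and ranged from −1.59 to −0.79 over the settings. It takes in both Cyp4a10 and Cyp4a31 and so does not rest on 4 separate values. Cyp4a10 and Cyp4a31 stayed within 2-fold under 5 of 13 settings and Cyp4a14 under 1. Cyp4a12a, of the male-typical subgroup, went the other way, with 1.08 at 5 weeks, 0.66 and 0.44.

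Of the remaining targets, Cd36, a fatty acid carrier found on macrophages too, had levels of 1.93, 1.54, 2.50 and 3.60 and differed by −0.38, 0.57 and 1.92. Hilpda, a lipid droplet protein that restrains lipolysis, differed by 1.04, 0.43 and 1.69, and Fads2, the delta-6 desaturase, by 1.13, 1.09 and 0.88. Fads2 had 6 bright spots around it at 5 weeks, and its value there was lost when such locally bright spots were left out. The second Fads2 probe gave 0.96, 1.03 and 1.41, so it was highest at 15 weeks and short of 2-fold at 5 weeks. The 5-week value of Hilpda fell short of 2-fold under 2 settings, down to 0.90, and that of Cyp4a12a under 1, at 0.98. Cidea, a lipid droplet protein of fat cells, was not well above background at 0 weeks (−3.07) and had levels of 0.78, 0.65 and 5.22 later. Against its own dim signal at 0 weeks, which lay above the lowest signal called above background, it was at least 14.5-fold, 13.3-fold and 372-fold higher. Aqp3, a glycerol channel, was above background at 0 weeks and not at 10 weeks, at least 2.03-fold lower. The partner Rxra differed by 0.03, −0.08 and −0.52 (0.38, 0.33 and −0.14 by its second probe) and the coactivator Ppargc1a by 0.70, 0.10 and −0.51, the last 0.01 by its second probe. Both stayed within 2-fold of 0 weeks. By its brightest probe Ppargc1a was 2.33-fold lower at 15 than at 5 weeks, beside 2.81% of 17422 genes called lower. The levels of that probe were 2.24 at 5 weeks and 0.81 at 15 weeks. Its second probe fell less, from −2.13 to −3.00.

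**Figure D5:**
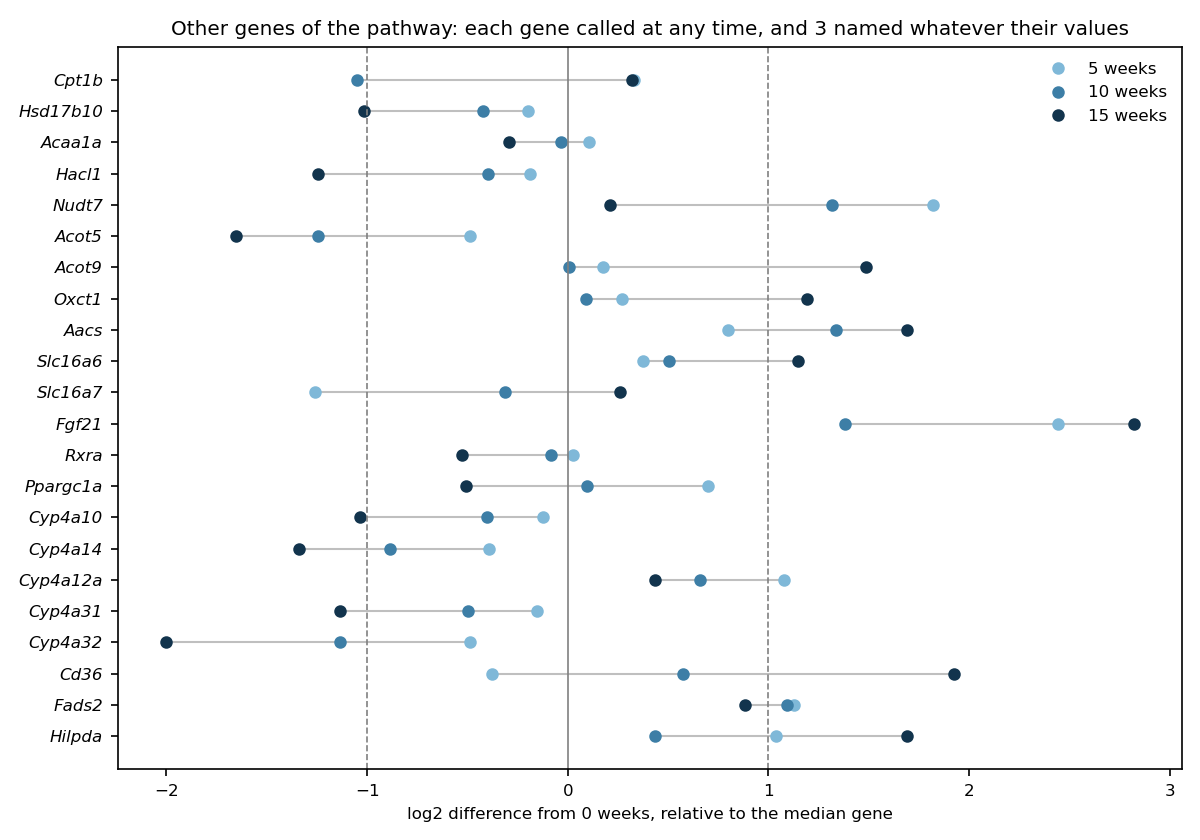
Log2 difference from 0 weeks relative to the median gene (x axis) for 22 other genes of the pathway (y axis), with a lighter to darker point for 5, 10 and 15 weeks, 1 array per time, and dashed lines at 2-fold. Fgf21 lies right of the line at all 3 times, Nudt7 at 5 and 10 weeks, and Cyp4a10, Cyp4a14, Cyp4a31 and Cyp4a32 lie left of it at 15 weeks (the first, the second and the third not under every setting). Acaa1a stays between −0.29 and 0.10.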

How the data were processed

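Liver RNA of mice was hybridised to 4 one-colour arrays. Per the file headers, signals were read with Agilent Feature Extraction 10.7.3.1, and the deposited scanner files give spot intensity on a linear scale, background-subtracted in the processed column, with marks for spots above background. The authors also deposited a value table, a ratio of that intensity to one constant per array. Each processed signal was divided by the 75th percentile of its array, taken without control spots, and put on the log2 scale, leaving out control and outlier spots (12 member spots). A gene took its brightest probe, and differences were taken relative to the median gene measured on both arrays. A difference of 2-fold was a call. Spots with at least 5 of 44 neighbours 2-fold brighter than on the other arrays were held locally bright. Every member was named, as were other pathway genes called against 0 weeks and Acaa1a, Rxra and Ppargc1a whatever their values; some genes of the rule are not reported here. Members and lists were chosen with earlier results of these data known. Names came from RefSeq (GRCm38.p6), probe positions (mm9) from the scanner files. Alternatives covered scaling, normexp (offset 50) and quantile normalization in limma 3.58.1 (R 4.3.3), filters, probe rules, the deposited table and references. Scaling was tested on simulated data.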

Additional observations from a re-analysis of the deposited data

How the results depend on the processing

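Scaling to the array median, to probes detected on all 4 arrays or to spike-in probes, and the deposited value table, left all 96 member differences from 0 weeks the same within 0.0945, since differences are relative to the median gene. As scaled, without that reference, 15 against 0 weeks gave 1 member higher, 3 lower and a median of −0.44, 15 against 10 weeks 1 higher and −0.37, and 15 against 5 weeks 3 lower and −0.57. The members' median at 15 against 0 weeks was 0.0218 after normexp and quantile normalization, 0.0571 after quantile normalization and −0.0224 without the background filter. At 15 against 10 weeks the same settings gave 0.0912, 0.12 and 0.0297, and at 15 against 5 weeks −0.15, −0.13 and −0.19 with 1 member higher under each. Without the filter the median at 5 against 0 weeks was 0.0112. Without locally bright spots 0 members were higher at 5 against 0 weeks and 1 was lower at 10 against 5 weeks. At a threshold of 1.5-fold 3 members were higher and 4 lower at 15 against 0 weeks, beside 2623 and 1430 of 17562 genes. Both references added after seeing the data gave 1 member higher at 15 against 5 weeks. Genes with a mean level of at least 4 gave medians of −0.0536, −0.0175 and −0.22 at 15 against 0, 10 and 5 weeks, and hepatocyte markers 0.15, 0.16 and −0.0911. No difference from 0 weeks that was called in the main setting changed direction, while uncalled ones such as Ppara and Cpt1a at 15 weeks did. Over all genes, 74.6% of calls at 15 against 0 weeks were higher, against 53.4% as scaled and 88.9% relative to the hepatocyte markers. Normexp with quantile normalization called 743 genes higher and 283 lower, where the main setting called 1424 and 486. No paired analysis was possible because each time point has 1 array.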
